A study of Mus musculus with 18 samples.

Results

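The immunoglobulin kappa variable (Igkv) segments are the germline building blocks of the front end of the kappa light chain. All genes of the count table whose annotated symbol starts with Igkv were taken as members, which gave 160 of 54532 genes. The annotation calls 100 of them V genes and 60 V pseudogenes. All 160 lie on chromosome 6 between 67555497 and 70704177 (mm10), 75 on the plus and 85 on the minus strand. The joining segments and the constant gene Igkc (chr6:70726435-70726966, plus strand) follow at the high-coordinate end.

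Whole jejunum was taken from inbred C57BL/6 mice aged 8 to 12 weeks, with no transgene or deletion stated. The FLASH group (7 libraries) was collected 16 h after 15 Gy to the whole abdomen at an ultra-high dose rate. The CONV group (5 libraries) was collected 16 h after the same dose at a conventional rate. The control group (6 libraries) received no radiation. Whether every library is a separate mouse is not stated in the labels, so p-values here reflect only library-to-library spread, which may be technical.

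A developing B cell joins a single V segment to a joining segment on a kappa allele, and most mouse B cells then use kappa in preference to lambda light chains. The joined V segment is transcribed with Igkc, so a B cell or plasma cell clone that uses kappa leaves reads on its own V segment and on Igkc. In the small intestine most antibody RNA comes from plasma cells of the lamina propria, which secrete IgA, while B cells sit mainly in Peyer's patches and isolated follicles. In bulk tissue, fewer cells of a type and less RNA per cell cannot be told apart.

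The segments that led the pool in at least 1 library are shown by the last 60 bases of their germline coding sequence (GENCODE vM21, mm10), since this end meets the joining segment. Igkv8-19 is added as the nearest relative of Igkv8-28. Capitals mark the bases after the conserved cysteine codon, the germline start of complementarity-determining region 3, the loop that contacts antigen and is completed by the joining segment. Each is written 5′ to 3′ on its coding strand.
Igkv1-117 (chr6:68121046-68121827, plus strand): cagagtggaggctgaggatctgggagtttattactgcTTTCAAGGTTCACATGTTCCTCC
Igkv1-110 (chr6:68270485-68271267, plus strand): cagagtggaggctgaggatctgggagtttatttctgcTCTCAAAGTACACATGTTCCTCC
Igkv10-96 (chr6:68631963-68632442, minus strand): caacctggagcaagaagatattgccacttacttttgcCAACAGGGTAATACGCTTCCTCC
Igkv12-46 (chr6:69764523-69765022, minus strand): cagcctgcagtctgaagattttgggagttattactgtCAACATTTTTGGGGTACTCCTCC
Igkv8-28 (chr6:70143593-70144166, minus strand): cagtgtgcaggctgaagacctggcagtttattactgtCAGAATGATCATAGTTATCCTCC
Igkv8-19 (chr6:70340876-70341453, minus strand): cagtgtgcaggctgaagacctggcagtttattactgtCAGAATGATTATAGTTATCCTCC
Igkv6-15 (chr6:70406469-70406992, minus strand): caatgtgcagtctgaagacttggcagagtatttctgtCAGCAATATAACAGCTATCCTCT

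Counting from 1 at the first base printed, Igkv8-28 and Igkv8-19 differ by C47T alone. Over the same stretch Igkv1-110 and Igkv1-117 differ by T33A, C39T, A44G and A47T. Over the whole transcript Igkv8-28 is 97.6% identical to Igkv8-19, and Igkv1-110 is 97.5% identical to Igkv1-117. Reads were 100 bases long. Igkv1-117 shares 49 of its 305 windows of that length with another segment, Igkv1-110 shares 49 of 302, and Igkv8-28 and Igkv8-19 share none. Windows counted as shared are exact germline matches, and the assignment of reads that differ from the germline was not tested. Among all 160 members, 48 share at least 1 such window and hold 53.5% of all Igkv counts, so reads of these could be split between near copies. A split within the family does not change the Igkv total.

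Libraries held 19.9 M to 30.2 M estimated counts. The length slope is the slope of log2 CPM, relative to each gene's mean, on log2 transcript length over 8942 genes. Below 0, shorter transcripts read relatively higher. Control 6 (-0.410), CONV 6 (-0.432) and FLASH 1 (-0.337) had the lowest slopes of their groups, and CONV 2 had -0.323. The groups overlapped. Control 6 also had the highest Igkv total. The part of this trend in the Igkv values was not tested. With library totals in place of TMM scaling, the median log2 fold change over all tested genes was -0.44 for FLASH against control, -0.25 for CONV against control and -0.18 for FLASH against CONV, in place of -0.07, -0.04 and -0.02. The medians of the Igkv segments under library totals were -2.58, -2.70 and 0.04, in the same order. The jejunum was not uniform in lymphoid content. Cr2 and Fcer2a, receptors of mature and follicular B cells, had 21.9 and 14.6 CPM in control 2 and 3.35 and 3.41 CPM in control 1, against at most 0.982 and 0.774 CPM in the other 4 controls. Among irradiated libraries the highest values were 0.512 CPM for Cr2 and 0.907 CPM for Fcer2a.

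Kappa variable RNA was several-fold less abundant after either kind of irradiation, with no overlap between irradiated and control libraries. Igkv counts made up 0.0159% of counts in the lowest FLASH library, 0.0238% in the median and 0.0463% in the highest. In the 5 CONV libraries the share was 0.0157, 0.0211, 0.0219, 0.0238 and 0.0519%. Controls ranged from 0.117% over a median of 0.191% to 0.254%. The highest irradiated library, CONV 7, stayed below the lowest control, and FLASH and CONV libraries overlapped.

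The mean share was 0.0288 ± 0.0123% in FLASH (SD, n = 7) and 0.0269 ± 0.0143% in CONV (SD, n = 5), against 0.187 ± 0.0544% in controls (SD, n = 6). The control mean was thus 6.49 times the FLASH mean and 6.95 times the CONV mean. On the scale of CPM (counts scaled to a common library size after TMM adjustment) the summed segments averaged 328 ± 150 in FLASH and 269 ± 134 in CONV, against 1648 ± 575 in controls, ratios of 5.03 and 6.12. Counting error is small beside this spread: the share of the shallowest pool, 3123 Igkv counts in CONV 2, had a 95% Wilson interval of 0.0151 to 0.0162%. These intervals cover counting error only. Pseudogene segments held at most 0.170% of Igkv counts in any FLASH, 0.416% in any CONV and 0.493% in any control library.

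Igkc followed the same course. It fell by 2.47 ± 0.33 on the log2 scale in FLASH (adjusted p = 1.97e-05, edgeR quasi-likelihood test, Benjamini-Hochberg) and by 2.60 ± 0.38 in CONV (adjusted p = 0.000159). The ± beside a log2 fold change is its standard error. Summed Igkv CPM per 100 Igkc CPM were 37.7, 42.0 and 45.9 in the lowest, median and highest FLASH library, 35.1, 36.7, 40.3, 41.2 and 35.3 in CONV 2, 3, 5, 6 and 7, and 31.5, 37.4 and 43.2 in the lowest, median and highest control. All groups overlapped in this ratio.

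**Figure D1:**
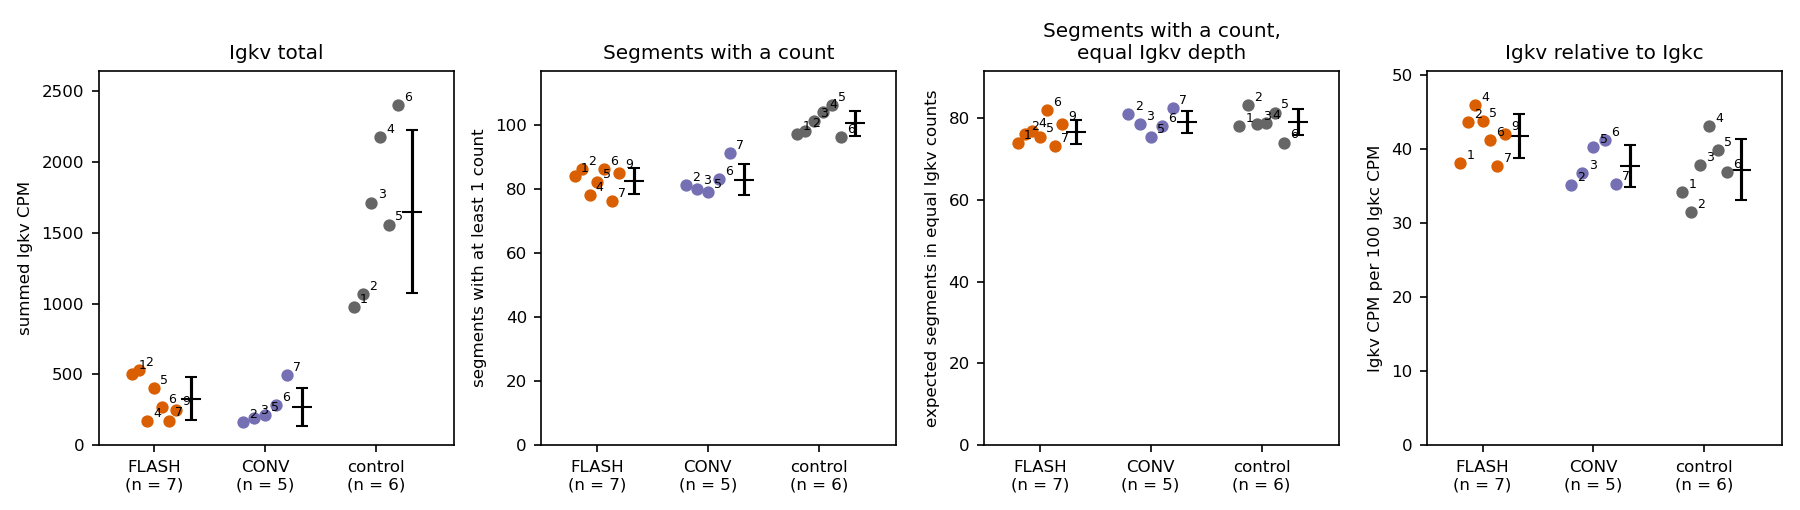
Each point is a library, labelled by its number, and the black mark is the group mean ± SD. From left to right the panels show summed Igkv CPM, segments with at least 1 count, the expected number of segments at an equal depth of 3123 Igkv counts, and Igkv CPM per 100 Igkc CPM; the irradiated libraries lie below every control in the 2 left panels and overlap them in the 2 right panels.

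Fewer different segments were seen after irradiation at full depth, and the groups overlapped once each library was thinned to an equal number of Igkv counts. At least 1 count was found for 76, 84 and 86 segments in the lowest, median and highest FLASH library, for 81, 80, 79, 83 and 91 in CONV 2, 3, 5, 6 and 7, and for 96, 99.5 and 106 in the lowest, median and highest control. Irradiated libraries did not overlap controls. After thinning every library to 3123 Igkv counts, the expected number was 73.1, 76.1 and 82.0 in FLASH, 81.0, 78.6, 75.4, 78.1 and 82.5 in CONV, and 74.0, 78.8 and 83.2 in controls. All 3 groups overlapped at equal depth, with means of 76.6 ± 2.99, 79.1 ± 2.73 and 79.0 ± 3.12.

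Across all libraries 128 segments had a count, among them all 100 V genes and 28 of 60 pseudogenes, and 56, all V genes, had a count in each of the 18 libraries. In 32 segments, all pseudogenes, no library had a count. For 18 segments a count was found in controls and in no irradiated library, and for 1 the reverse, at unequal depths.

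No single segment held most of the pool in any library, and the share of the leading segment overlapped between the groups. Igkv1-117 was the leading segment in 6 of 7 FLASH, 2 of 5 CONV and 2 of 6 control libraries. Igkv1-110 led in CONV 2, CONV 6, control 3 and control 5. Igkv12-46 led in FLASH 4, Igkv6-15 in CONV 7, Igkv10-96 in control 4 and Igkv8-28 in control 6. The leader held 9.32, 12.2 and 20.8% of Igkv counts in the lowest, median and highest FLASH library, 7.65, 9.11, 15.9, 12.5 and 11.5% in CONV 2, 3, 5, 6 and 7, and 9.18, 13.0 and 23.8% in the lowest, median and highest control. In the most dominated libraries the 95% Wilson interval was 19.9 to 21.7% for Igkv1-117 in FLASH 5 and 23.5 to 24.1% for Igkv8-28 in control 6.

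The 5 leading segments together held 39.3 ± 3.58% of the pool in FLASH, 37.3 ± 4.31% in CONV and 42.5 ± 4.27% in controls. The effective number of segments (the inverse of the summed squared shares, which equals the number of segments when all are equally frequent) was 21.2 ± 3.35 in FLASH, 23.2 ± 4.07 in CONV and 19.2 ± 4.15 in controls. FLASH 5 at 14.2 and control 6 at 12.1 were the most concentrated pools.

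**Figure D2:**
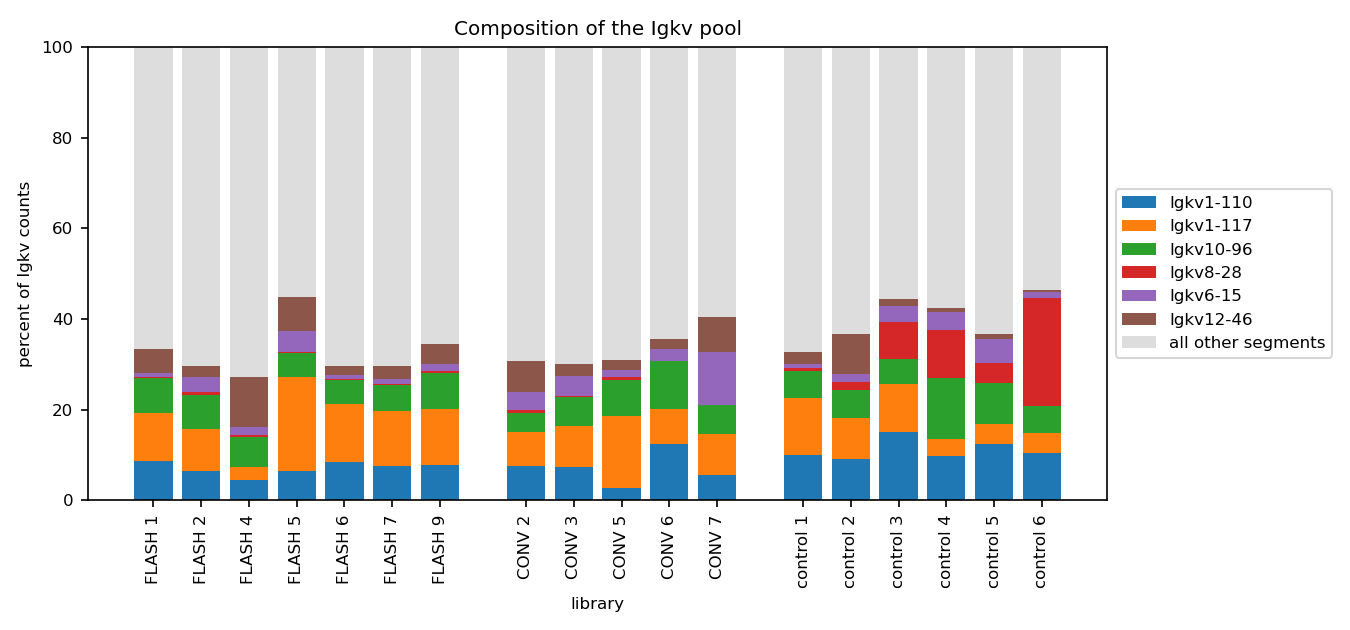
Each bar is a library and the colours show the percent of its Igkv counts held by the 6 segments that led the pool in at least 1 library, with grey for all others. Igkv8-28 (red) holds 0.658 to 23.8% in controls and at most 0.856% in irradiated libraries, while Igkv1-117 (orange) holds up to 20.8% in FLASH 5.

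Any pair of libraries had much of its pool in common. The shared share, the sum over segments of the smaller of the pair's shares, had a median of 64.5% within FLASH (21 pairs, 55.8 to 71.5%), 63.3% within CONV (10 pairs, 57.4 to 70.0%) and 60.4% within controls (15 pairs, 55.2 to 68.3%). Between FLASH and control libraries it had a median of 57.4% (42 pairs, 45.3 to 72.9%) and between CONV and control 59.4% (30 pairs, 47.3 to 73.7%). With Igkv8-28 left out these were 60.4% and 61.7%, against 65.0% within controls. Pairs share libraries and were not tested.

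By family, named by the number after Igkv in the symbol, family 1 (which holds Igkv1-110, Igkv1-117 and Igkv1-135) took 22.0 ± 5.66% of the pool in FLASH, 19.8 ± 4.02% in CONV and 21.3 ± 5.36% in controls. Family 8, which holds Igkv8-28, took 7.27 ± 2.85% in FLASH and 7.46 ± 1.68% in CONV, against 17.5 ± 10.1% in controls. Family 12, which holds Igkv12-44 and Igkv12-46, took 11.4 ± 5.11% in FLASH and 10.4 ± 3.09% in CONV, against 5.64 ± 2.99% in controls, with overlapping libraries. By position in the locus the groups overlapped: the members nearest Igkc (53 in the high-coordinate span of 3 equal spans) held 39.9 ± 2.95% in FLASH, 40.8 ± 7.08% in CONV and 43.6 ± 6.60% in controls.

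Gene by gene, 79 members, all V genes, passed the filter on low counts and were tested; the other 81 held 0.883% of Igkv counts. Of the 79, 53 reached the filter's level of 0.382 CPM in 5 FLASH libraries, 39 in 5 CONV libraries and 71 in 5 controls, and 17 reached it in controls only. Another 8 reached it in 5 libraries of no single group. Passing through controls alone favours segments that read lower after irradiation. The counts over the 79 are therefore a description and are not counts over all 160.

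Against control, 52 of 79 segments fell in FLASH and none rose (65.8%; 21% of all 16257 genes tested fell). In CONV 43 of 79 fell and none rose (54.4%; 12% of all genes fell). The background of risen genes was 16.7% for FLASH and 10.2% for CONV. At an unadjusted p under 0.05 the count of higher segments was also 0 in both (background 20.7% for FLASH and 17.5% for CONV). DESeq2 called 51 lower and 0 higher in each, and its share over all genes is not given here. Both comparisons use the same 6 controls. The median log2 fold change was -2.21 in FLASH and -2.46 in CONV, against -0.07 and -0.04 over all genes. Libraries did not overlap for 13 lower segments in FLASH (16.5%, background 6.86%) and 27 in CONV (34.2%, background 4.95%). Among the 38 segments that reached the filter's level in all 3 groups, 30 fell in FLASH and 27 in CONV, with medians of -2.10 and -2.31.

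**Figure D3:**
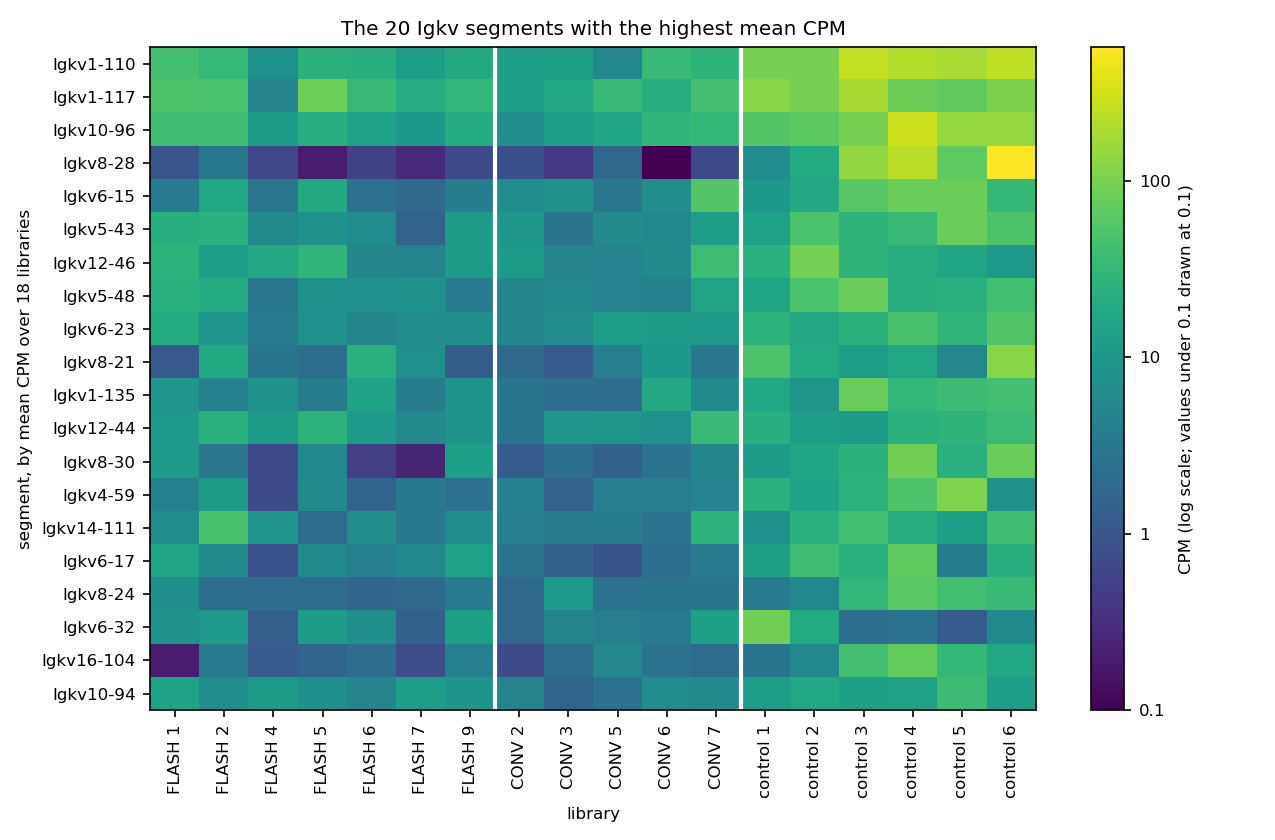
Rows are the 20 segments with the highest mean CPM over 18 libraries, columns the libraries, and colour the CPM on a log scale. Control columns are brighter in most rows, and Igkv8-28 has 6.41 to 572 CPM in controls and at most 3.29 CPM in irradiated libraries.

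Igkv8-28 stood furthest from control. It had 0.196, 0.661 and 3.29 CPM in the lowest, median and highest FLASH library, 0.838, 0.419, 1.82, 0.0903 and 0.709 CPM in CONV 2, 3, 5, 6 and 7, and 6.41, 20.1, 139, 234, 68.0 and 572 CPM in controls 1 to 6. Irradiated and control libraries did not overlap, and the controls themselves spanned 89.2-fold. It fell by 7.50 ± 0.96 on the log2 scale in FLASH (adjusted p = 1.31e-05, edgeR) and by 7.78 ± 1.14 in CONV (adjusted p = 1.80e-04, edgeR). Control 6 held 54.5% of its summed CPM, and without control 6 the log2 fold changes were -6.61 and -6.89. Without FLASH 2 the FLASH value was -8.24, and without CONV 5 the CONV value was -8.39. In counts, the 12 irradiated libraries held 259 reads on it in all and the 6 controls 28877.

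The near copy Igkv8-19 did not share this spread among controls. It had 0, 0.925 and 4.29 CPM in the lowest, median and highest FLASH library, 0.733, 1.33, 2.31, 2.30 and 12.3 CPM in CONV 2, 3, 5, 6 and 7, and 14.2, 17.6 and 24.8 CPM in the lowest, median and highest control. All irradiated libraries were below all controls. It fell by 3.66 ± 0.73 in FLASH (adjusted p = 7.25e-04, edgeR) and by 2.27 ± 0.77 in CONV (adjusted p = 0.0412, edgeR). The CONV call was lost when any of CONV 2, 3, 5 or 6 or any of controls 1 to 5 was left out, and without CONV 7 the log2 fold change was -3.46. Igkv8-19 was chosen after its values were seen, for its sequence.

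The 3 other most abundant segments fell as well. Igkv1-110 had 7.66, 22.7 and 44.0 CPM in the lowest, median and highest FLASH library, 12.5, 13.9, 5.58, 35.2 and 27.8 CPM in the CONV libraries, and 96.2, 203 and 257 CPM in controls, with no overlap. It fell by 2.96 ± 0.43 in FLASH (adjusted p = 4.00e-05, edgeR) and by 3.28 ± 0.49 in CONV (adjusted p = 2.35e-04, edgeR). Igkv10-96 had 9.98, 20.3 and 40.1 CPM in FLASH, 6.86, 12.2, 16.9, 29.8 and 31.8 CPM in CONV, and 56.7, 120 and 292 CPM in controls, with no overlap. It fell by 2.57 ± 0.45 in FLASH and by 2.77 ± 0.51 in CONV. Igkv1-117 had 4.71, 33.9 and 83.7 CPM in FLASH, 12.2, 17.4, 33.8, 21.6 and 44.2 CPM in CONV, and 68.4, 101 and 181 CPM in controls. FLASH 5 overlapped controls and no CONV library did. It fell by 1.47 ± 0.44 in FLASH (adjusted p = 0.0130, edgeR) and by 2.08 ± 0.50 in CONV (adjusted p = 0.00759, edgeR).

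As shares of the pool, Igkv1-117 averaged 11.5 ± 5.34% in FLASH and 9.80 ± 3.47% in CONV, against 7.49 ± 3.82% in controls. Igkv1-110 averaged 7.10 ± 1.47% in FLASH and 7.13 ± 3.60% in CONV, against 11.1 ± 2.22% in controls, and only its FLASH libraries stayed below every control. Igkv12-44 averaged 4.44 ± 1.74% in FLASH and 4.13 ± 1.91% in CONV, against 1.42 ± 0.571% in controls, with overlap in both.

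Of the 20 most abundant segments, 16 fell in FLASH and 15 in CONV. The 4 that passed in neither were Igkv12-46, Igkv12-44, Igkv14-111 and Igkv6-32, with log2 fold changes of -1.06 ± 0.58, -0.67 ± 0.46, -1.06 ± 0.67 and -1.37 ± 0.83 in FLASH. Their CONV values were -1.31 ± 0.65, -0.83 ± 0.51, -1.57 ± 0.76 and -1.82 ± 0.94. Some of these calls changed with a single library or with the method. With limma-voom Igkv14-111 passed in FLASH (-1.54, adjusted p = 0.0430) and in CONV (-1.94, adjusted p = 0.0440), and with library totals Igkv12-46 passed in FLASH (-1.50, adjusted p = 0.0443, edgeR). Without CONV 7, the CONV library with the most Igkv RNA, Igkv12-46 had -2.27, Igkv12-44 had -1.60 and Igkv14-111 had -2.78 in CONV, and all 3 passed (adjusted p = 0.0189, 0.0239 and 0.0169, edgeR). Without FLASH 2, Igkv14-111 had -2.06 in FLASH and passed (adjusted p = 0.00971, edgeR). Without control 2, where Igkv12-46 reached 92.8 CPM, its values were -0.36 in FLASH and -0.63 in CONV. Igkv6-15 fell in FLASH by 2.69 ± 0.73 (adjusted p = 0.00745, edgeR) and had -1.53 ± 0.79 in CONV (adjusted p = 0.159, edgeR), where CONV 7 reached 57.4 CPM and the other 4 stayed between 2.94 and 8.58 CPM. Without CONV 7 the CONV value was -2.91 (adjusted p = 0.0145, edgeR). Its FLASH against CONV difference was -1.17 ± 0.74 and did not pass, and it was 0.22 without CONV 7.

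Igkv6-32 shows how a single library can carry a segment. It had 1.37, 8.55 and 13.6 CPM in the lowest, median and highest FLASH library, 1.78, 4.99, 4.02, 3.66 and 13.8 CPM in CONV, and 88.5, 19.7, 2.30, 2.68, 1.25 and 6.20 CPM in controls 1 to 6. Without control 1 its log2 fold change was 0.32 in FLASH and -0.17 in CONV. Its controls spanned 70.9-fold and 4 of the 6 lay within the irradiated range or below it. The other 11 of the 20 fell in both groups, with Igkv8-21, Igkv10-94 and Igkv6-17 losing a call in some alternatives. Without control 6 Igkv8-21 had -1.35 in FLASH (adjusted p = 0.138, edgeR), and without control 5 Igkv10-94 had -0.54 in FLASH (adjusted p = 0.193, edgeR). Among the 79 tested segments, 7 had over 50% of their summed CPM in a single library, and 72 had their highest library among the controls, 4 among FLASH and 3 among CONV. The filter favours a highest library among controls, since 17 of the 79 reached its level in controls only. The share over all genes is not given here, so the 72 are a description only.

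**Figure D4:**
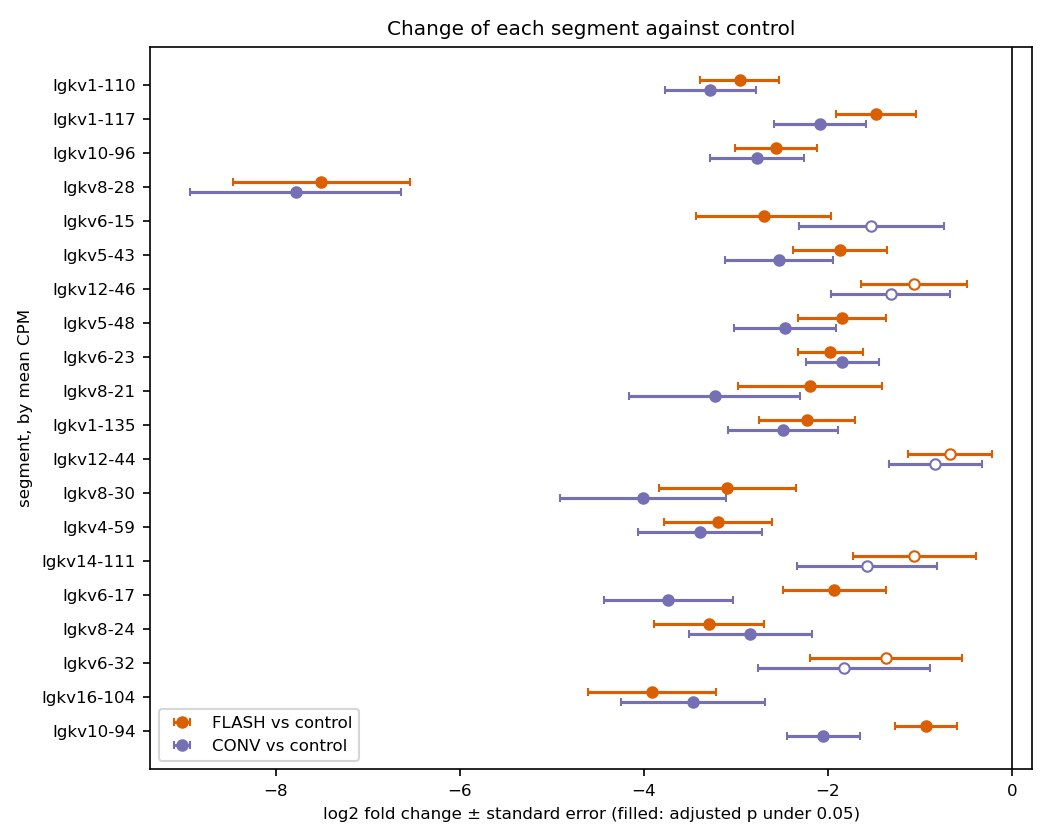
Points are log2 fold changes ± standard error of the 20 most abundant segments for FLASH against control (orange) and CONV against control (purple), filled where the adjusted p is under 0.05. All points lie below 0, from -7.78 for Igkv8-28 in CONV to -0.67 for Igkv12-44 in FLASH.

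The remaining segments among the 5 with the smallest p of a comparison were less abundant and changed in both. Igkv4-71 had 0.396, 1.20 and 2.35 CPM in FLASH, 1.68, 1.15, 1.75, 1.17 and 1.67 CPM in CONV, and 3.58, 7.62 and 17.1 CPM in controls. It fell by 2.88 ± 0.40 in FLASH and by 2.65 ± 0.45 in CONV, with no overlap. Igkv4-70 fell by 3.70 ± 0.60 in FLASH and by 4.54 ± 0.73 in CONV, with no overlap. Igkv3-10 fell by 3.85 ± 0.64 in FLASH and by 4.89 ± 0.79 in CONV, with no overlap, and had -5.68 in CONV without CONV 7. Igkv2-112 fell by 5.25 ± 0.80 in FLASH, where the highest library had 1.44 CPM and the lowest control 1.73 CPM, and by 3.18 ± 0.81 in CONV, where libraries overlapped. Without FLASH 1 its FLASH value was -5.90. The FLASH against CONV difference of Igkv2-112 was -2.07 ± 0.79 (adjusted p = 0.0709, edgeR) and did not pass, but passed without FLASH 1 (-2.72, adjusted p = 0.0264, edgeR) and without CONV 6 (-2.36, adjusted p = 0.0441, edgeR). It also passed with library totals (-2.28, adjusted p = 0.0407, edgeR) and without control 6, CONV 6 and FLASH 1 together (-3.03, adjusted p = 0.00809, edgeR). Those libraries had the lowest length slopes of their groups.

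Few segments differed between the dose rates. Of 79 tested, 3 were higher and 2 lower in FLASH than in CONV (6.33% in either direction, against 19.8% of all genes; 9.88% of all genes were higher and 9.91% lower). The median log2 fold change was 0.21, against -0.02 over all genes, and 0.04 with library totals. Libraries of the groups did not separate for any of the 79 segments, against 4.08% of all genes higher and 4.45% lower without overlap. Intervals on single segments were wide, with a median standard error of 0.77.

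Igkv4-63 had 0.214, 1.57 and 7.53 CPM in the lowest, median and highest FLASH library and 0.262, 0.209, 0.186, 0.0451 and 0.674 CPM in CONV 2, 3, 5, 6 and 7. FLASH 2 and FLASH 9 lay within the CONV range. It was higher in FLASH by 3.08 ± 0.81 (adjusted p = 0.0136, edgeR), and 2.44 without FLASH 7 or 3.74 without CONV 7. With limma-voom the call was lost (2.74, adjusted p = 0.114). Against control it fell by 1.84 ± 0.63 in FLASH (-2.48 without FLASH 7) and by 4.91 ± 0.87 in CONV (-5.58 without CONV 7). The FLASH against control call was lost without any of FLASH 4, 5 or 9 or controls 1 or 6.

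Igkv4-79 had 0.793, 3.85 and 11.4 CPM in the lowest, median and highest FLASH library and 0.314, 0.0698, 1.19, 0.542 and 0.497 CPM in the CONV libraries. Only FLASH 4 lay within the CONV range. It was higher in FLASH by 3.01 ± 0.80 (adjusted p = 0.0142, edgeR), while neither difference from control passed (1.30 ± 0.68 for FLASH and -1.71 ± 0.79 for CONV). Without control 6 the CONV value was -1.09, and the FLASH value was 1.92 and passed (adjusted p = 0.0299, edgeR). Igkv10-94 had 4.86, 8.67 and 14.4 CPM in FLASH and 4.87, 1.64, 2.53, 6.82 and 5.96 CPM in CONV, with overlap, and was higher in FLASH by 1.12 ± 0.37 (adjusted p = 0.0422, edgeR). That call was lost without any of FLASH 1, 7 or 9 or CONV 2, 3, 5 or 7, with log2 fold changes of 0.91 to 1.26. Library totals, replicate number as a block and testing every gene of at least 1 count also lost it.

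Igkv4-80 had 0, 0.147 and 1.28 CPM in FLASH and 0.943, 0.419, 5.47, 1.90 and 1.28 CPM in CONV, with overlap. It was lower in FLASH by 2.52 ± 0.76 (adjusted p = 0.0262, edgeR), and the log2 fold change was -1.70 without CONV 5 (adjusted p = 0.122, edgeR) and -3.36 without FLASH 2. The call was also lost without FLASH 7 (-2.31, adjusted p = 0.0503, edgeR), with replicate number as a block and with every gene of at least 1 count tested. Igkv4-86 had 0, 0.384 and 1.01 CPM in FLASH and 0.628, 1.57, 0.707, 0.0451 and 12.4 CPM in CONV. It was lower in FLASH by 2.97 ± 0.98 (adjusted p = 0.0398, edgeR), and without CONV 7 the log2 fold change was -0.92 (adjusted p = 0.525, edgeR). The call was also lost without any of FLASH 1, 2, 6, 7 or 9, and without controls 1 and 2 together. Other methods that lost it were limma-voom (adjusted p = 0.184) and replicate number as a block (adjusted p = 0.361, edgeR). It was lost too with only the FLASH and CONV libraries in the fit or with every gene of at least 1 count tested.

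**Figure D5:**
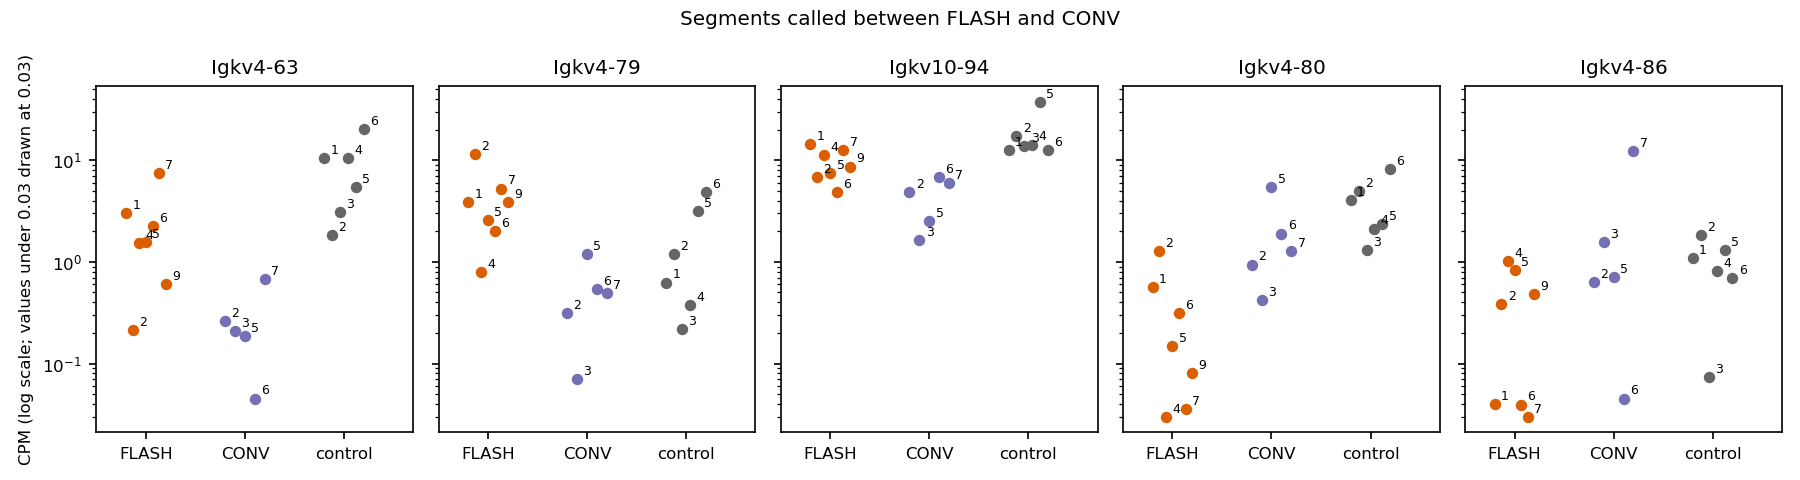
CPM on a log scale of the 5 segments called between FLASH and CONV, each point a library labelled by its number, with controls for scale. In each panel FLASH and CONV points overlap; CONV 7 is the high CONV library of Igkv4-86 at 12.4 CPM and FLASH 2 the high FLASH library of Igkv4-79 at 11.4 CPM.

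The other antibody genes moved in the same direction. Igha, the IgA heavy chain constant gene, averaged 981 ± 342 CPM in FLASH and 684 ± 355 CPM in CONV, against 5257 ± 1588 CPM in controls. It fell by 2.42 ± 0.29 in FLASH and by 2.94 ± 0.34 in CONV. Jchain, which links IgA into dimers, averaged 244 ± 139 CPM in FLASH and 237 ± 127 CPM in CONV, against 1505 ± 707 CPM in controls, and fell by 2.62 ± 0.38 in FLASH and by 2.66 ± 0.44 in CONV. All 3 tested genes of the kappa joining and constant list fell in both groups, as did all 6 of the lambda light chain list. Of 7 tested heavy chain constant genes, 7 fell in FLASH and 3 in CONV. Of all genes, 21% fell in FLASH and 12% in CONV. None of these 16 list genes passed between FLASH and CONV, against 19.8% of all genes.

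The lambda share of light chain V counts was 1.98 to 11.0% in FLASH, 3.34 to 8.66% in CONV and 2.69 to 6.09% in controls, with overlap. Summed heavy chain V CPM averaged 242 ± 86.1 in FLASH and 159 ± 73.2 in CONV, against 1233 ± 500 in controls. Igkv CPM per 100 heavy chain V CPM were 101 to 180 in FLASH, 130 to 212 in CONV and 100.3 to 271 in controls.

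Some plasma cell markers and most tested B cell markers fell with the segments, and the part of either in the fall was not tested. Of 12 plasma cell genes, 8 fell in FLASH and 6 in CONV and none rose, where 21% of all genes fell in FLASH and 12% in CONV. They included Irf4, a transcription factor of plasma cell differentiation, which fell by 1.92 ± 0.28 in FLASH and by 2.41 ± 0.32 in CONV, and Tnfrsf17, the survival receptor BCMA, which fell by 3.68 ± 0.46 in FLASH and by 1.94 ± 0.46 in CONV. Sdc1 and Xbp1, which intestinal epithelium also expresses, passed in neither. The mean of Xbp1 was 235 CPM in FLASH and 262 CPM in CONV, against 211 CPM in controls, with overlap. Between the dose rates 1 of the 12 was higher in FLASH than in CONV and 3 were lower, against 9.88% and 9.91% of all genes. Prdm1, a transcription factor of plasma cells, was higher in FLASH by 1.31 ± 0.30. It had 8.19 to 32.1 CPM in FLASH, 5.13 to 13.2 CPM in CONV and 8.72 to 17.4 CPM in controls. Tnfrsf17, Derl3 and Mzb1 had log2 fold changes of -1.74 ± 0.48, -1.43 ± 0.40 and -1.28 ± 0.41. Tnfrsf17 had few counts, with 0 to 0.299 CPM in FLASH, 0.279 to 1.35 CPM in CONV and 1.51 to 3.02 CPM in controls. The summed plasma cell list ranged from 556 to 1138 CPM in FLASH, from 685 to 1067 CPM in CONV and from 1317 to 3418 CPM in controls. Jchain, 1 of the 12, alone ranged from 124 to 480 CPM in FLASH, 154 to 452 CPM in CONV and 828 to 2790 CPM in controls. The gap in the sum is therefore not separate from that of Jchain.

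Of 9 tested B cell genes, 9 fell in FLASH and 6 in CONV, where 21% and 12% of all genes fell. Of the 9, 1, Bank1, was lower in FLASH than in CONV (-2.32 ± 0.53), against 9.91% of all genes. Cd79a, a signalling subunit of the B cell receptor, fell by 3.65 ± 0.50 in FLASH and by 2.79 ± 0.54 in CONV. The summed B cell list ranged from 4.62 to 15.5 CPM in FLASH, from 5.82 to 22.9 CPM in CONV and from 30.6 to 291 CPM in controls, where control 2 was highest. Cr2 was at 0 in at least 1 FLASH and 1 CONV library and in no control, and Fcer2a was at 0 in at least 1 library of each group, control 6 included. The controls with the most B cell RNA, controls 2 and 1, had the lowest Igkv totals among controls (1065 and 974 CPM, against 1558 to 2401 CPM in the other 4). Without controls 1 and 2, 47 segments fell in FLASH and 37 in CONV. The share of all genes that fell in that fit is not given here.

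Of 7 tested follicle or Peyer's patch genes 3 fell in FLASH and 1 in CONV, and the same counts were found for 7 V(D)J recombination genes, whose median log2 fold changes were -0.18 in FLASH and 0.11 in CONV. Set against the 21% and 12% of all genes that fell, the CONV counts of both lists are at the background. Between the dose rates 9.88% of all genes were higher in FLASH and 9.91% lower. Of the V(D)J list, Nhej1 and Xrcc6 were lower in FLASH than in CONV (-1.08 ± 0.27 and -0.78 ± 0.19). Of 11 B lineage transcription factors 7 fell in FLASH and 8 in CONV, and Pou2f1 was higher in FLASH than in CONV by 1.63 ± 0.44. Among 5 enterocyte genes 4 rose in FLASH and 3 in CONV, where 16.7% and 10.2% of all genes rose, and 1 was higher and 1 lower in FLASH than in CONV. Among 5 T cell genes 4 fell in FLASH and all 5 in CONV, and among 5 smooth muscle genes 5 fell in FLASH and 3 in CONV. Their part in the segments' values was not tested.

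Of 11 tested genes for homing, survival and transport of IgA plasma cells, 6 fell in FLASH and 8 in CONV, where 21% and 12% of all genes fell. Between the dose rates 3 were higher in FLASH than in CONV and 0 lower, against 9.88% and 9.91% of all genes. Pigr, the epithelial carrier of IgA, fell by 0.93 ± 0.23 in FLASH and by 1.79 ± 0.26 in CONV, and was higher in FLASH than in CONV by 0.87 ± 0.24 (adjusted p = 0.0188, edgeR). Ccr9, a gut homing receptor of lymphocytes, had -0.26 ± 0.27 in FLASH and fell by 2.02 ± 0.31 in CONV, and was higher in FLASH than in CONV by 1.76 ± 0.31 (adjusted p = 0.00114, edgeR). Ccl28, a chemokine that attracts IgA plasma cells, was higher in FLASH than in CONV by 1.37 ± 0.42 (adjusted p = 0.0291, edgeR). It had 14.8 to 67.9 CPM in FLASH, 6.33 to 36.4 CPM in CONV and 29.8 to 43.6 CPM in controls, and all groups overlapped. Its receptor Ccr10 fell by 2.34 ± 0.29 in FLASH and by 2.38 ± 0.33 in CONV, and the difference between them was 0.03 ± 0.32.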

How the data were processed

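RNA of whole jejunum (250 ng per library) was sequenced as single-end reads of 100 bases. The submitters' processing notes name STAR, Salmon, mm10, edgeR 3.40.2 and limma 3.54.2. The deposited count table held expected counts per Ensembl gene, not scaled, which were rounded. The authors' second deposited table held normalized log2 values for 19193 genes. None of them is an Igkv segment, so it was not used for results. Symbols came from GENCODE vM21 (54409 gene IDs; 123 without one held 0.028% of counts).

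All 18 libraries entered 1 fit with edgeR 4.0.16 (R 4.3.3): filterByExpr, TMM scaling, quasi-likelihood test with robust dispersion, Benjamini-Hochberg over 16257 genes, threshold 0.05. CPM use TMM-scaled library sizes. Standard errors are the absolute log2 fold change over the root of F. Thinned values are hypergeometric expectations. Alternatives used limma 3.58.1 and DESeq2 1.42.0. The fit was tested on simulated data. No 2 libraries were duplicates (lowest chi-square per degree of freedom 25.1). Python 3.11.15 (pandas 2.3.3, numpy 2.4.6, matplotlib 3.10.9) made tables and figures.

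Members, gene lists and tests were chosen with earlier results of these data known. Segments named are the 20 with the highest mean CPM, each that led a library, the 5 with the smallest p among those called per comparison, and all called between FLASH and CONV. Libraries far from their group were looked for among these.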

Additional observations from a re-analysis of the deposited data

Results flagged for a closer look

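In 24 of 99 groups of 4 or more libraries examined for a named segment or a measure of the whole pool, 1 library stood apart from the others by Dixon's criterion (24.2%). The criterion gives about 1 in 20 for independent groups with no selection, which these are not: the segments were named partly by abundance or p, and they share libraries. CONV 7 accounted for 8 of them. It held 0.0519% of its counts on Igkv segments, and stood above the other CONV libraries for Igkv6-15 (57.4 CPM), Igkv12-46 (38.3 CPM), Igkv12-44 (33.5 CPM), Igkv14-111 (27.2 CPM), Igkv5-48 (15.5 CPM), Igkv6-32 (13.8 CPM) and Igkv4-86 (12.4 CPM). CONV 3 stood apart for Igkv8-24 (10.5 CPM) and Igkv4-59 (1.53 CPM), and CONV 6 for Igkv1-135 (18.3 CPM).

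Among FLASH libraries, FLASH 5 stood apart in the share of its leading segment, Igkv1-117 (20.8%), and in its effective number of segments (14.2). FLASH 2 stood apart for Igkv14-111 (48.1 CPM), Igkv4-79 (11.4 CPM) and Igkv8-28 (3.29 CPM), FLASH 1 for Igkv6-23 (20.4 CPM), Igkv8-24 (7.46 CPM) and Igkv2-112 (1.44 CPM), and FLASH 7 for Igkv4-63 (7.53 CPM). Among controls, control 2 stood apart for Igkv12-46 (92.8 CPM), control 1 for Igkv6-32 (88.5 CPM), control 5 for Igkv10-94 (37.6 CPM) and control 3 for Igkv3-10 (22.0 CPM).

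Between FLASH and CONV the tested difference passed for 5 of 79 segments (6.33%, against 19.8% of all genes). The log2 fold changes were 1.12 for Igkv10-94, 3.08 for Igkv4-63, 3.01 for Igkv4-79, -2.52 for Igkv4-80 and -2.97 for Igkv4-86. All of these but Igkv4-79 lost the call in some alternatives.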

How the results depend on the processing

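Against control, the count of segments that fell ranged from 36 (replicate block) to 64 (library totals) in FLASH and from 32 (replicate block) to 51 (DESeq2) in CONV, and from 45 to 54 and from 34 to 46 with 1 library left out. Igkv4-79 alone rose against control, in FLASH, in the 2 fits without control 6. The FLASH against CONV count of 5 was 2 with every gene of at least 1 count tested, 3 with limma-voom, 2 with the replicate block, and 3 to 7 with 1 library left out. The share of all genes called in each of these fits is not given here, so the counts cannot be compared between settings. The labels do not tie replicate numbers to a mouse, litter or day. Same-number correlations ran from -0.27 to 0.61, and in 2 of 13 pairings a library correlated best with its own number. These correlations cannot settle whether equal numbers are paired. Mean segments detected were 71.4 in FLASH, 74.8 in CONV and 90.0 in controls at 3 counts, 59.0, 59.0 and 78.0 at 10 counts, and 76.6, 79.1 and 79.0 after thinning. The 5 leading segments held 39.3, 37.3 and 42.5%. Directions reversed for uncalled values: Igkv6-32 without control 1 (0.32 in FLASH) and without controls 1 and 2 (1.34 in FLASH, 0.85 in CONV, chosen after seeing the data), and, without CONV 7, Igkv6-15 between FLASH and CONV (0.22) and Igkv4-86 in CONV (-0.38). With 1 library left out, Igkv6-32 in FLASH ran from -1.60 to 0.32, Igkv6-15 between FLASH and CONV from -1.61 to 0.22 and Igkv4-86 in CONV from -0.38 to 1.97. The cause was not tested. A test on the authors' log2 values gave no value, since that table as used here holds no Igkv segment. Depth limits the rarer segments most: 28 of 160 had at least 10 counts in every library.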
